A study of Homo sapiens with 6 samples.

Results

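Immediate early genes of the EGR, NR4A and IER families, together with the serum response factor gene SRF, were followed in SKOV3ip1 cells after silencing of BARD1. The 9 genes, EGR1, EGR2, EGR3, NR4A1, NR4A2, NR4A3, IER2, IER5 and SRF, were taken by name from the 58735 genes of the count table. Each name stood on 1 protein-coding row. SKOV3ip1 is a human ovarian adenocarcinoma line, labelled WT, and the labels call the material both cells and tumors while the protocols describe culture in plates. Cells received 2 µg of control siRNA or of BARD1 siRNA with a cationic lipid and were kept for 48 h, with 3 libraries in each group. Both groups were transfected, and no untransfected culture was analysed here. The titles number biological replicates without saying whether they were transfected on separate days, so p-values measure the spread between these samples. The series asks how loss of BARD1 affects tumour angiogenesis pathways.

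Immediate early genes are transcribed within minutes of a stimulus such as serum, growth factors or stress, without new protein synthesis, because the factors that switch them on are already present. SRF is such a factor. It binds a sequence called the CArG box together with either ternary complex factors, which are ETS proteins phosphorylated by ERK, or the actin-sensing cofactors MRTFA and MRTFB. EGR1, EGR2 and EGR3 encode zinc finger transcription factors that bind GC-rich sites and are held back by the NAB corepressors. NR4A1, NR4A2 and NR4A3 encode orphan nuclear receptors whose activity is set mainly by their abundance. IER2 and IER5 encode short nuclear proteins, and IER5 is known to bring the phosphatase PP2A to the heat shock factor HSF1.

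The RefSeq promoter sequences show how 7 of the 9 genes differ in CArG boxes. A window of 250 bases before to 50 bases after the start was found for 7 members, 11 windows in all, and EGR3 and NR4A2 had no entry. A CArG box was present in windows of 3 members, EGR1, EGR2 and SRF, while 1.3% of all 34943 windows hold at least 1. The core of the cyclic AMP response element, TGACG on either strand, was present in windows of 5 members, EGR1, EGR2, NR4A3, IER2 and SRF, and in 24.5% of all windows. The full element TGACGTCA, the NR4A site AAAGGTCA, the AP-1 site TGANTCA and the heat shock element were found in none of the 11 windows. The EGR site GCGNGGGCG lay in windows of EGR1, EGR2 and SRF and in 9.41% of all windows. The EGR2 match lay only past the start, in a window that starts 2420 bases from the start of its principal transcript. NR4A1 and IER5 held none of the motifs searched. The 2 NR4A1 windows start 28570 and 13687 bases from the start of its principal transcript in GENCODE 29. A motif of the NF-κB type was found in 1 member, SRF, in both of its windows, and in 5.9% of all windows. In the first SRF window the match lies past the start. The second SRF window starts 1097 bases from the start of its principal transcript. The TATA box TATAAA occurred in 1 member, SRF, only past the start, and in 11.6% of all windows. These are matches of letters on both strands, not measured binding.

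The stretches before the start that carry these matches follow, 5′ to 3′ on the gene's strand, from RefSeq on GRCh38.p14. Capitals mark CArG boxes (10 bases from CC to GG) and the cyclic AMP response element core (TGACG, or CGTCA where it lies on the opposite strand). EGR1 is shown because it holds 2 CArG boxes and did not pass the test, SRF because it holds 2 CArG boxes and rose, EGR2 because it holds 1 and was near absent, and NR4A3 because it holds none and rose.
EGR1 (chr5:138465329-138465478, plus strand): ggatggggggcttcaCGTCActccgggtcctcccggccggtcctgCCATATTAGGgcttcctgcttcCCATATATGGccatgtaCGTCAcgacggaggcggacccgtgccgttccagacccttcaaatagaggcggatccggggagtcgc
SRF (chr6:43171119-43171268, plus strand): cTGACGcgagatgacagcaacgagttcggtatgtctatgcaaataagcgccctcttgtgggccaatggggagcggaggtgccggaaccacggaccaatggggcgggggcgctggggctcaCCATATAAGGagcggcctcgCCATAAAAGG
EGR2 (chr10:62816367-62816516, minus strand): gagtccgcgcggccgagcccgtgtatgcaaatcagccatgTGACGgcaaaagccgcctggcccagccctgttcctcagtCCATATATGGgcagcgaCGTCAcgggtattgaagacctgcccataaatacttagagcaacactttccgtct
NR4A3 (chr9:99821735-99821854, plus strand): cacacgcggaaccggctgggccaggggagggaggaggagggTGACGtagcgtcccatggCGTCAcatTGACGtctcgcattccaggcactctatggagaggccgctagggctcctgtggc
In EGR1 the CArG boxes begin 105 and 83 bases before the start, and in SRF they begin 30 and 10 bases before it. In EGR2 the box begins 71 bases before the start. The NR4A3 stretch ends 31 bases before the start because an annotated exon begins there, and it holds 3 of the 4 cores in that window.

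The libraries held between 16621108 and 17743404 gene counts. CPM, the unit used for a gene's level, is its count scaled to the library's total over tested genes times a TMM scaling factor. In these libraries 1 CPM stood for 16.2 to 18.0 counts. BARD1 itself stood at 44.3 ± 5.85 CPM in control siRNA cells and fell to 7.38 ± 2.04 CPM (mean ± SD, n = 3 in each group, as for all values that follow), and no BARD1 siRNA library overlapped the control siRNA libraries. Of the cell type markers, 9 epithelial and ovarian carcinoma genes summed to 4296 to 4690 CPM in control siRNA and 4395 to 4510 CPM in BARD1 siRNA libraries, a sum made up mostly of ERBB2 and KRT8. Single markers moved in both directions by the edgeR test, with KRT7 lower by a log2 fold change of −0.98, KRT19 by −0.60, EPCAM by −0.24 and ERBB2 by −0.14, and PAX8 higher by 0.75 and KRT18 by 0.40. KRT8 at 0.05 did not pass, and WT1 and MUC16 were too low to test. The 3 immune markers and the erythroid marker were at 0 in every library, and 3 endothelial markers summed to at most 0.308 CPM. The 3 fibroblast markers summed to 23.3 to 24.8 CPM in control siRNA and 14.7 to 19.6 CPM in BARD1 siRNA libraries. COL3A1 fell from 19.2 ± 0.540 to 10.8 ± 2.00 CPM, whereas COL1A1 was at 4.89 ± 0.297 and 6.71 ± 0.637 CPM without passing the threshold and PDGFRB was near 0. The part of these markers in the results was not tested. In bulk RNA, a change in the share of cells that express a gene and a change in RNA per cell cannot be told apart.

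Silencing of BARD1 was accompanied by higher RNA of 7 of the 9 genes, and none was lower. NR4A2 rose 9.40-fold, NR4A1 5.32-fold, NR4A3 4.95-fold and EGR3, from a very low level, 3.72-fold, and IER5, IER2 and SRF rose by 1.79-fold, 1.54-fold and 1.30-fold. EGR1, by far the most abundant of the 9, did not pass the threshold, and EGR2 was too low to test. For comparison, 22.0% of the 15271 tested genes were called higher and 20.3% lower, 42.3% in all (edgeR quasi-likelihood test, Benjamini-Hochberg adjusted p under 0.05). The groups did not overlap for 6 of the 9 genes, against 50.4% of all tested genes. A rise of at least 2-fold was called for 4 of the 9, NR4A1, NR4A2, NR4A3 and EGR3, against 4.48% of tested genes. NR4A3 passed the filter on low counts through its BARD1 siRNA libraries alone, and NR4A2 and EGR3 would not have passed on their control siRNA libraries, so the place of these 3 among the tested genes depends on their rise. NR4A2 had the largest log2 fold change of the 9 under all 16 alternatives, but the order below it changed. EGR3 at 3.22 stood above NR4A1 at 2.40 and NR4A3 at 2.23 without control siRNA replicate 2, and above NR4A3 with limma-voom (2.18 against 2.08) and without BARD1 siRNA replicate 3 (2.31 against 2.17).

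**Figure D1:**
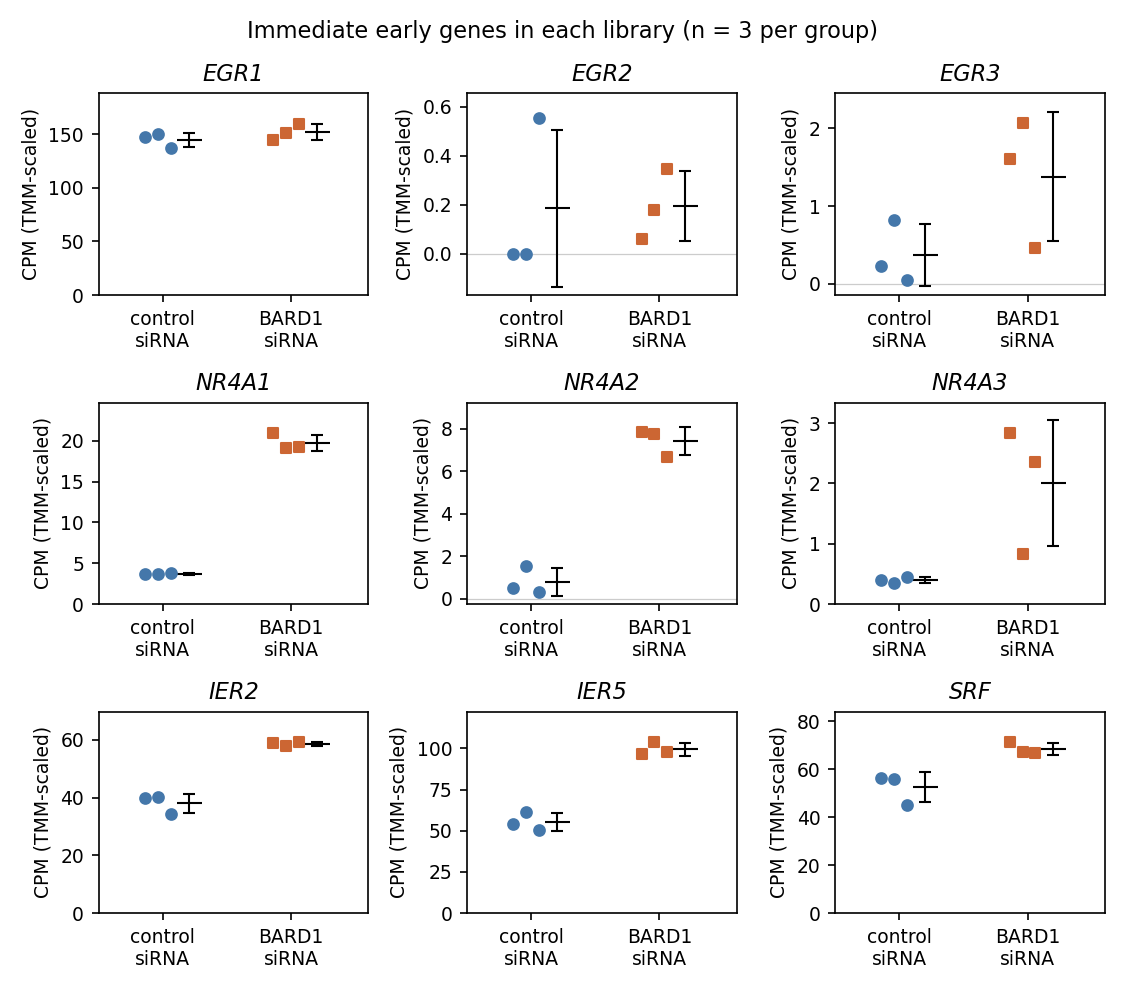
Each panel shows 1 gene, with TMM-scaled CPM on the vertical axis, each library as a point (circles control siRNA, squares BARD1 siRNA) and mean ± SD beside them. The groups lie apart for NR4A1, NR4A2, NR4A3, IER2, IER5 and SRF, and overlap for EGR1, EGR2 and EGR3.

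NR4A1 (ENSG00000123358), the nuclear receptor also known as Nur77, lies on chromosome 12 from 52022832 to 52059507, plus strand (GRCh38 in this and all following positions). It had 64, 62 and 69 counts in the control siRNA libraries and 340, 323 and 334 in the BARD1 siRNA libraries. Replicates were close to each other in both groups, with SDs of 2.89% and 5.16% of the mean. Expression rose from 3.70 ± 0.107 to 19.8 ± 1.02 CPM (edgeR log2 fold change 2.41, SE 0.15, adjusted p = 4.12e-19), and 0.897% of tested genes had a higher log2 fold change.

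NR4A2 (ENSG00000153234), which encodes Nurr1 and is best known from dopaminergic neurons, lies on chromosome 2 from 156324432 to 156342348, minus strand. The control siRNA libraries held 9, 26 and 6 counts of it, and the BARD1 siRNA libraries 127, 131 and 116. The second control library stood above the other two, at 1.53 CPM against 0.512 and 0.333, but remained far below all BARD1 siRNA libraries. Expression rose from 0.791 ± 0.644 to 7.41 ± 0.649 CPM, the largest change among the 9 genes (edgeR log2 fold change 3.23, SE 0.32, adjusted p = 1.22e-11). Without control siRNA replicate 2 the log2 fold change was 4.11.

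NR4A3 (ENSG00000119508), which encodes NOR1, lies on chromosome 9 from 99821855 to 99866891, plus strand. It had 7, 6 and 8 counts in control siRNA and 46, 14 and 41 in BARD1 siRNA libraries. The second BARD1 siRNA library, at 0.829 CPM, lay between the control libraries and the other two BARD1 siRNA libraries. The mean went from 0.398 ± 0.0457 to 2.01 ± 1.05 CPM (edgeR log2 fold change 2.31, SE 0.51, adjusted p = 0.000169). The 95% interval of the fold change ran from 2.44 to 10.0.

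Levels of different genes were compared as CPM per kb of the deposited gene length. In these units the NR4A genes together rose from 0.770 ± 0.147 to 4.89 ± 0.341, and NR4A1 made up the largest share in every library. NR4A1 took 72.2%, 53.1% and 77.3% of the NR4A sum in control siRNA libraries and 54.3%, 55.7% and 56.2% in BARD1 siRNA libraries. NR4A2 took 18.7%, 41.0% and 12.4%, then 37.3%, 41.5% and 35.9%, so that its share in the second control library was within the range of the BARD1 siRNA group. The log2 ratio of NR4A2 to NR4A1 was 1.06 higher with BARD1 siRNA, a difference that the exact two-sided permutation test did not separate (p = 0.4, adjusted p = 0.5 over 5 ratios). With 3 libraries against 3 the smallest p this test can give is 0.1. Without control siRNA replicate 2 the NR4A2 to NR4A1 difference was 1.68, and without control siRNA replicate 3 it was 0.59. The log2 ratio of NR4A3 to NR4A1 differed by −0.32 (exact permutation p = 1), by −0.61 and −0.54 without BARD1 siRNA replicates 1 and 3, and by 0.19 without BARD1 siRNA replicate 2.

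**Figure D2:**
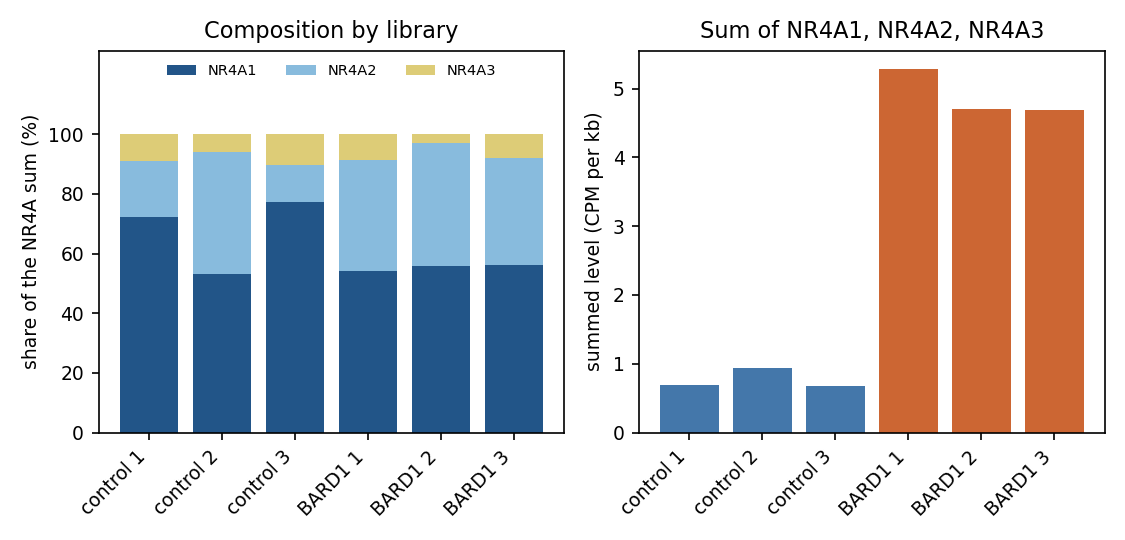
The left panel gives the percent share of NR4A1, NR4A2 and NR4A3 in the summed NR4A level of each library, and the right panel gives that sum in CPM per kb. The sum lay between 0.679 and 0.940 in control siRNA and between 4.68 and 5.29 in BARD1 siRNA libraries, while control replicate 2 had an NR4A1 share of 53.1%, near those of the BARD1 siRNA libraries.

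EGR1 (ENSG00000120738), the zinc finger factor often used as a readout of ERK signalling, lies on chromosome 5 from 138465490 to 138469315, plus strand. Control siRNA libraries held 2586, 2548 and 2470 counts, and BARD1 siRNA libraries 2349, 2552 and 2769. The groups overlapped, and the lowest BARD1 siRNA library, at 145 CPM, lay below 2 of the control libraries. Expression was 145 ± 6.69 and 152 ± 7.27 CPM (edgeR log2 fold change 0.07, SE 0.06, adjusted p = 0.348). The 95% interval of the fold change ran from 0.970 to 1.13, so a rise of the size seen in IER2, IER5 or the NR4A genes lies outside it. At 46.1 ± 2.13 CPM per kb in control siRNA cells, EGR1 stood above 94.1% of tested genes.

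EGR3 (ENSG00000179388), which acts downstream of growth factor and antigen receptor signals, lies on chromosome 8 from 22687659 to 22693302, minus strand. The control siRNA libraries held 4, 14 and 1 counts and the BARD1 siRNA libraries 26, 35 and 8. The groups overlapped, since control replicate 2 had 0.822 CPM and BARD1 siRNA replicate 3 had 0.460 CPM. The mean went from 0.368 ± 0.402 to 1.38 ± 0.829 CPM (edgeR log2 fold change 1.90, SE 0.62, adjusted p = 0.0128). The call was lost without control siRNA replicate 1 (log2 fold change 1.65, edgeR adjusted p = 0.0803), control siRNA replicate 3 (1.38, adjusted p = 0.0731) or BARD1 siRNA replicate 2 (1.47, adjusted p = 0.123), and without control siRNA replicate 2 the value was 3.22.

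EGR2 (ENSG00000122877), known from myelination and hindbrain development, spans chromosome 10 from 62811996 to 62919900, minus strand, in the table. It had 0, 0 and 10 counts in control siRNA libraries and 1, 3 and 6 in BARD1 siRNA libraries. Both groups summed to 10 counts, the control counts all came from replicate 3, and the gene did not pass the filter. With no filter on low counts its log2 fold change was 0.06 (edgeR adjusted p = 0.994). EGR1 accordingly supplied 99.0% to 99.9% of the EGR sum per kb in every library. The log2 ratio of EGR3 to EGR1 was 2.11 higher and that of EGR2 to EGR1 1.22 higher with BARD1 siRNA, without separation by exact permutation (p = 0.2 and p = 0.4). Without control siRNA replicate 3 the EGR3 difference was 1.32, and the EGR2 difference was 2.71. The EGR2 difference was 0.48 without control siRNA replicate 1, 0.49 without control siRNA replicate 2 and 0.78 without BARD1 siRNA replicate 3.

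IER5 (ENSG00000162783), which takes part in the HSF1 response, lies on chromosome 1 from 181088712 to 181092899, plus strand. It had 949, 1048 and 913 counts in control siRNA and 1571, 1750 and 1701 in BARD1 siRNA libraries. The lowest BARD1 siRNA library, at 96.7 CPM, was well above the highest control library, at 61.5 CPM. Expression rose from 55.4 ± 5.57 to 99.4 ± 3.76 CPM (edgeR log2 fold change 0.84, SE 0.07, adjusted p = 5.59e-15).

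IER2 (ENSG00000160888), an immediate early gene that encodes a short nuclear protein, lies on chromosome 19 from 13150415 to 13154908, plus strand. It had 697, 682 and 616 counts in control siRNA and 956, 977 and 1029 in BARD1 siRNA libraries. The BARD1 siRNA libraries were within 1.12% of each other as SD over mean, and all lay above the controls. Expression rose from 38.0 ± 3.29 to 58.6 ± 0.656 CPM (edgeR log2 fold change 0.63, SE 0.08, adjusted p = 4.99e-09). Within libraries, the log2 ratio of IER5 to IER2 was 0.0968 ± 0.0895 in control siRNA and 0.314 ± 0.0694 in BARD1 siRNA cells. The ratios did not overlap between the groups, at the smallest p the exact permutation test can give (p = 0.1, adjusted p = 0.5).

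SRF (ENSG00000112658), the factor that binds the CArG boxes, lies on chromosome 6 from 43171299 to 43181507, plus strand. It had 990, 953 and 815 counts in control siRNA and 1156, 1135 and 1160 in BARD1 siRNA libraries. Control replicate 3 was the lowest, and all BARD1 siRNA libraries exceeded the controls. Expression rose from 52.5 ± 6.33 to 68.3 ± 2.45 CPM (edgeR log2 fold change 0.38, SE 0.08, adjusted p = 5.55e-05), and 19.4% of tested genes had a higher log2 fold change.

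**Figure D3:**
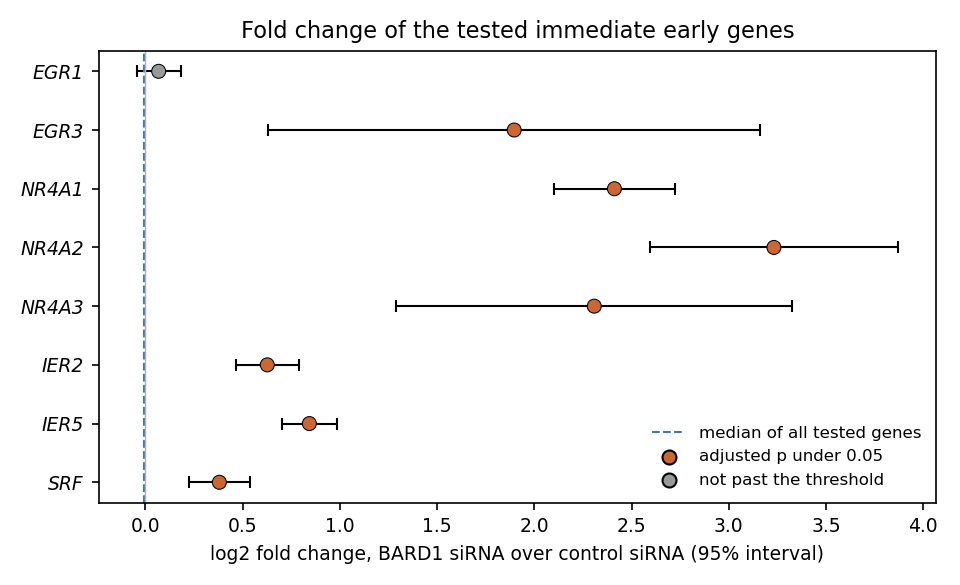
Log2 fold changes of the 8 tested genes are plotted with 95% intervals from the edgeR fit, beside the median of all tested genes (dashed). EGR1 is the only gene drawn whose interval includes 0, and the NR4A genes and EGR3 lie to the right of IER2, IER5 and SRF, with wide intervals for EGR3 and NR4A3.

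By level per kb, the order with control siRNA was EGR1, IER5, SRF, IER2, NR4A1, NR4A2, EGR3, NR4A3 and EGR2. IER5, SRF and IER2, at 13.2 ± 1.33, 12.5 ± 1.51 and 12.4 ± 1.07 CPM per kb, did not differ beyond their spread, and neither did EGR3, NR4A3 and EGR2. NR4A2 and EGR3 also overlapped, with NR4A2 from 0.0839 to 0.385 and EGR3 from 0.0114 to 0.169 CPM per kb. With BARD1 siRNA the order was EGR1, IER5, IER2, SRF, NR4A1, NR4A2, NR4A3, EGR3 and EGR2. IER5 at 23.7 ± 0.897, IER2 at 19.1 ± 0.214 and SRF at 16.3 ± 0.582 CPM per kb no longer overlapped, whereas levels of NR4A3 at 0.318 ± 0.166 and EGR3 at 0.284 ± 0.171 did. NR4A1 went from above 13.3% to above 38.6% of tested genes, and NR4A2 from above 4.60% to above 31.7%.

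Gene structure varied among the 9. In the principal GENCODE 29 transcript, IER2 and IER5 have 1 exon and the EGR genes 2, while SRF has 7, NR4A1 and NR4A2 have 8 and NR4A3 has 9. The pentamer AUUUA, a mark of unstable mRNAs when repeated, was counted in the 3′ UTR. It occurred 10 times each in NR4A3 and IER5, 4 times in NR4A2, 3 times each in NR4A1, EGR3 and SRF, 2 times in EGR2, 1 time in EGR1 and 0 times in IER2. Over 18956 coding genes the frequency was 2.26 per kb of 3′ UTR, compared with 5.34 for NR4A1, 3.32 for IER5, 3.31 for NR4A3 and 3.05 for NR4A2. EGR1 at 0.81, EGR3 at 1.07, SRF at 1.29 and EGR2 at 1.65 per kb were below it. The NR4A1 value rests on 3 pentamers in a 3′ UTR of 562 bases. A stricter 9-base motif, UUAUUUA followed by 2 bases that are A or U, occurred 4 times in IER5 and 1 time in SRF. It occurred in none of the NR4A genes, the EGR genes or IER2, and in 17.3% of coding genes. No statement on RNA stability can be drawn from these counts, since only RNA level was measured.

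The genes whose pattern over the 6 libraries was closest to each member, by Euclidean distance of centred log2 CPM among 10842 or 10843 protein-coding genes, differed from member to member. Nearest to NR4A1 were SQSTM1, IER3 and TRIB3 (distances 0.136 to 0.139), nearest to NR4A2 were ZFP36, TNF and BBC3 (1.01 to 1.15), and nearest to NR4A3 were MSC, HBEGF and PLXNA2 (0.990 to 1.09). IER2 was closest to IRS1, GCC1 and LTBR, IER5 to N4BP3, IGFN1 and HDAC5, and SRF to KMT2B, ZXDB and ZNF3. EGR1 was closest to C8orf82, HNRNPH3 and ENSG00000198060, all of which missed the threshold. For EGR3 the nearest, U2AF1, TCP11L2 and CLDN4, were at distances of 1.41 to 1.80 and so the least alike, and U2AF1 was not called. The nearest genes of NR4A2 and NR4A3 were also less alike than those of NR4A1. Genes compared had a mean log2 CPM of at least 2, a level that EGR3, NR4A2 and NR4A3 did not reach. The libraries fall into the same groups for all these genes, so the distances are a description.

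Cofactors of SRF moved in opposite directions. The ternary complex factor genes ELK3 and ELK1 rose, ELK3 from 151 ± 9.13 to 304 ± 6.49 CPM (log2 fold change 1.01, edgeR adjusted p = 1.31e-22) and ELK1 from 53.0 ± 3.39 to 79.9 ± 3.57 CPM (0.59, adjusted p = 6.52e-10). ELK4 rose by 0.18 (edgeR adjusted p = 0.00771), a call lost with upper-quartile factors at 0.0875, with library size alone at 0.0727 and without control siRNA replicate 2 at 0.0675. MRTFB fell by 0.49, from 63.8 ± 6.28 to 45.5 ± 2.45 CPM (edgeR adjusted p = 8.76e-07), and MRTFA had a log2 fold change of −0.01 (adjusted p = 0.931). MYOCD had 0 counts in every library. Of 5 tested cofactors, 3 were thus higher and 1 lower, with a median of 0.18 against −0.0075 for all tested genes. The shares called among all tested genes were 22.0% higher and 20.3% lower.

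Genes known as targets of SRF with MRTF, most of them cytoskeletal, moved both ways. Of 23 tested, 6 were higher and 9 lower, with a median log2 fold change of −0.05. This compares with 22.0% higher and 20.3% lower among all tested genes. With upper-quartile factors or library size alone, 5 were higher and 12 lower. The largest changes among them were decreases, and the largest rise was 0.39 for ZYX (edgeR adjusted p = 1.84e-08). MYL9, a myosin light chain, fell by 1.25 (edgeR adjusted p = 0.00163), TAGLN, which encodes transgelin, by 0.61 (2.25e-06), CTGF, a matricellular growth factor, by 0.52 (0.000297) and the tropomyosin gene TPM1 by 0.46 (2.60e-09) on the log2 scale.

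The other immediate early genes were listed with earlier results of these libraries known. Of 30 tested, 26 were higher and 1 lower, with a median log2 fold change of 1.54, against 22.0% higher and 20.3% lower among all tested genes. With upper-quartile factors or library size alone 25 were higher. ATF3, a stress-induced bZIP factor, rose by 5.35 (edgeR adjusted p = 4.93e-36), the AP-1 gene FOSB by 4.87 (5.72e-23), PPP1R15A by 3.81 (1.22e-26) and the MAP kinase phosphatase gene DUSP1 by 3.32 (1.52e-41). FOSB would not have passed the filter on its control siRNA libraries. PLK2, a polo-like kinase gene, was the 1 that fell, by 0.53 (edgeR adjusted p = 3.01e-13). SGK1, HES1 and KLF2, with log2 fold changes of 0.07, 0.09 and 0.42, missed the threshold as EGR1 did. KLF2 passed with limma-voom, with no filter, with the replicate block and without control siRNA replicate 2.

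The EGR corepressor gene NAB2, itself induced by EGR factors, rose from 40.1, 44.6 and 30.2 CPM with control siRNA to 56.6, 58.1 and 58.9 CPM with BARD1 siRNA (edgeR log2 fold change 0.60, SE 0.10, adjusted p = 4.55e-06). NAB1, at 87.2 ± 3.30 and 85.3 ± 0.916 CPM, did not pass (log2 fold change −0.03, edgeR adjusted p = 0.732). EGR4, the other member of the EGR family, had 0, 0 and 1 counts in control siRNA and 4, 4 and 6 in BARD1 siRNA libraries, and the related zinc finger gene WT1 had 25 and 20 counts over the groups. Both were too low to test. Of 13 genes described as targets of EGR factors, 10 were higher and 1 lower, with a median of 0.55. These 13 were listed with earlier results of these libraries known, so their count is a description. Of all tested genes, 22.0% were called higher and 20.3% lower. GDF15, a stress cytokine, rose from 2.37 ± 0.155 to 76.4 ± 0.726 CPM. The adhesion gene ICAM1 rose by 4.20, the death receptor gene TNFRSF10B by 2.30 and VEGFA by 1.57 on the log2 scale, and the heparanase gene HPSE fell by 0.69 (edgeR adjusted p between 5.58e-38 for GDF15 and 5.42e-05 for HPSE). ICAM1, with 6, 0 and 3 counts in control siRNA and 55, 56 and 54 in BARD1 siRNA libraries, passed the filter through the BARD1 siRNA libraries alone, so its inclusion depends on its rise and the size of its fold change is uncertain. These genes have other regulators as well.

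Among dimer partners and coregulators of nuclear receptors, 3 of 8 tested were higher and 2 lower. The shares among all tested genes were 22.0% higher and 20.3% lower. The coactivator gene NCOA3 rose by 0.96 (edgeR adjusted p = 3.57e-20) and the retinoid X receptor gene RXRB, whose product pairs with NR4A1 and NR4A2, by 0.44 (9.02e-05). The glucocorticoid receptor gene NR3C1 fell by 0.25 (0.00135) and NCOA1 by 0.20 (0.0211). RXRA, NCOR1 and NCOA2 had log2 fold changes of −0.12, 0.01 and 0.03 and missed the threshold, and RXRG had 0 counts. RXRA was called lower with upper-quartile factors, on library size alone and without control siRNA replicate 3. NCOA1 lost its call without control siRNA replicate 3 (adjusted p = 0.0797) or BARD1 siRNA replicate 1 (0.130).

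Genes described as targets of NR4A receptors in other tissues went both ways. Among all tested genes, 22.0% were called higher and 20.3% lower. Of 7 tested, PDK4, which encodes a kinase that restrains pyruvate oxidation, rose by 1.33 and the osteopontin gene SPP1 by 0.70. CCND2, which encodes cyclin D2, fell by 1.03, the survivin gene BIRC5 by 0.67 and PRKDC, which encodes the catalytic subunit of DNA-PK, by 0.60 on the log2 scale (edgeR adjusted p from 1.18e-15 to 0.000166). The glucose transporter gene SLC2A4 at −1.06 and the enolase gene ENO3 at 0.61 missed the threshold. SLC2A4 was called lower without BARD1 siRNA replicate 1 and ENO3 higher without control siRNA replicate 2. The other 5 genes of the list, OSTN, FBP2, STAR, POMC and TH, were too low to test.

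IER relatives differed in direction from each other. IER3, a stress-inducible survival gene that shares the name but not the family of IER2, rose from 173 ± 8.04 to 876 ± 27.6 CPM (edgeR log2 fold change 2.34, SE 0.05, adjusted p = 9.00e-40). IER5L, the closest relative of IER5 by name, fell from 134 ± 14.1 to 93.8 ± 5.21 CPM (edgeR log2 fold change −0.51, SE 0.07, adjusted p = 5.21e-09). SERTAD3 and SERTAD2, of the SERTA domain family, rose by 0.49 and 0.34, and CDCA4 fell by 0.14 (edgeR adjusted p = 0.0386). SERTAD1 at 0.21 and SERTAD4 at −0.45 did not pass. The CDCA4 call was lost with DESeq2 (adjusted p = 0.0580) and without control siRNA replicate 2, BARD1 siRNA replicate 1 or BARD1 siRNA replicate 2, where adjusted p reached 0.228. SERTAD4 was called lower with upper-quartile factors or unadjusted library sizes, and SERTAD1 higher without control siRNA replicate 2.

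In the HSF1 branch, 9 of 16 tested genes were higher and 3 lower, with a median log2 fold change of 0.26. This list too was made with earlier results of these libraries known. Of all tested genes, 22.0% were called higher and 20.3% lower. The inducible HSP70 genes HSPA1A and HSPA1B rose by 2.37 and 2.05 on the log2 scale, though reads of these near-identical copies may have been divided between them. The cochaperone gene BAG3 rose from 62.4 ± 5.78 to 124 ± 3.84 CPM and the HSP110 gene HSPH1 by 0.52 on the log2 scale (edgeR adjusted p from 7.48e-34 for HSPA1A to 5.34e-12 for HSPH1). The 3 that fell were the cytosolic HSP90 gene HSP90AA1 by 0.18, the mitochondrial chaperonin gene HSPD1 by 0.17 and the PP2A scaffold gene PPP2R1A by 0.13 (edgeR adjusted p = 0.00092, 0.00119 and 0.0229). The PPP2R1A call was lost without BARD1 siRNA replicate 2 (adjusted p = 0.0722) or replicate 3 (0.0975). Other PP2A genes did not fall. PPP2R2A rose by 0.38 and PPP2CB by 0.23 (edgeR adjusted p = 5.64e-06 and 0.000588), and PPP2CA at 0.005 did not pass. HSF1 itself rose by 0.42 (edgeR adjusted p = 1.91e-08).

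**Figure D4:**
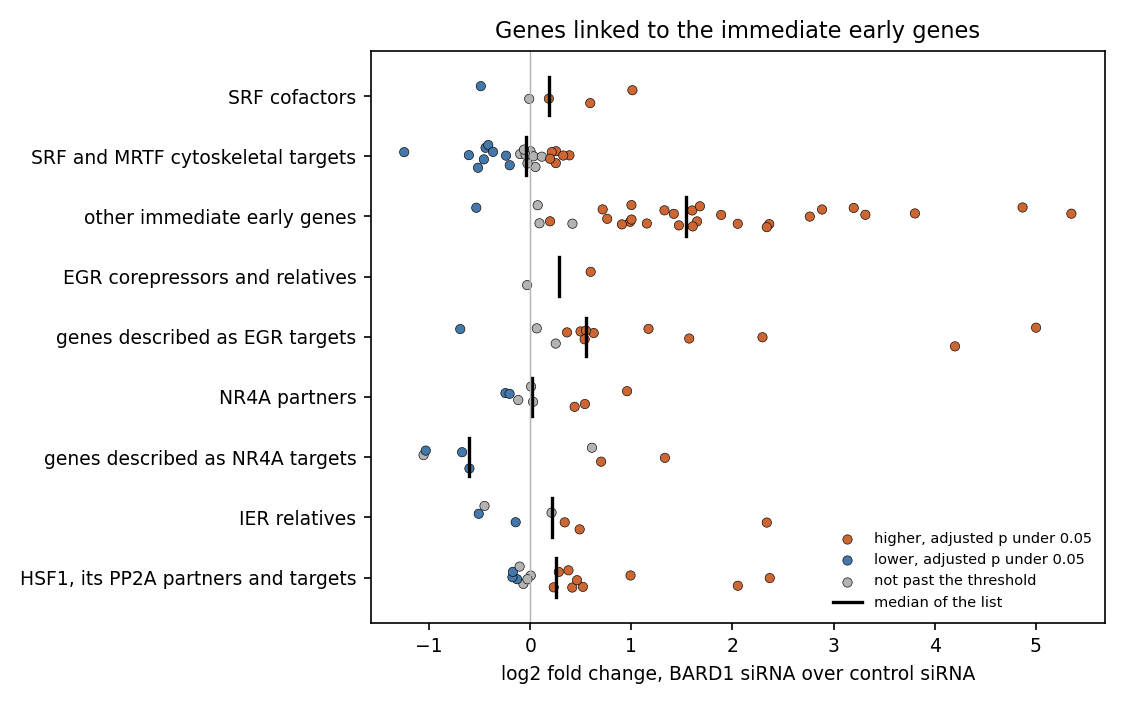
Each point is a tested gene of a list linked to the immediate early genes, placed by its log2 fold change and coloured by its call, with the list median as a bar. The other immediate early genes have a median of 1.54, whereas the mostly cytoskeletal SRF targets sit around −0.05 and the NR4A targets at −0.60.

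Neighbouring genes moved in both directions. The nearest tested protein-coding gene on each side of the 9 genes gave 18 genes in all. Of these, 8 were higher, 4 lower and 6 not past the threshold. Of all tested genes, 22.0% were called higher and 20.3% lower. Distances ran from 0.032 to 3563 kb, so not all of the 18 lie close to a member. GRASP, 6.94 kb from NR4A1, rose from 1.12 to 3.10 CPM (edgeR log2 fold change 1.46, SE 0.34, adjusted p = 0.000423) and ATG101 on the other side by 0.52. GPD2, 92.9 kb from NR4A2, fell by 0.54, and ARL6IP6, 3563 kb from NR4A2 on the other side, fell by 0.30. STX10 begins 32 bases from IER2 on the opposite strand and fell by 0.25 while IER2 rose. CCDC130, 577 kb from IER2 on the other side, rose by 0.36. Beside EGR1, ETF1 rose by 0.28 and REEP2 had −0.15, not past the threshold. Beside SRF, PTK7 at −0.04 and CUL9 at 0.09 did not pass. Beside IER5, MR1 at 0.01 did not pass, and GLUL, 1289 kb from IER5, rose by 0.25. BIN3 beside EGR3 rose by 0.45, and RHOBTB2, 294 kb from EGR3, fell by 0.45. NRBF2, 213 kb from EGR2, rose by 0.79, and ADO on the other side had 0.04. SEC61B, 591 kb from NR4A3, rose by 0.74, and STX17 on the other side had 0.15. The calls of GLUL, CCDC130 and ARL6IP6 were each lost in at least 1 alternative, and REEP2 was called lower with upper-quartile factors.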

How the data were processed

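RNA from SKOV3ip1 cells was sequenced after poly(A) capture, per the labels' protocols, in 3 control siRNA and 3 BARD1 siRNA libraries. The authors deposited raw counts per gene, not normalized. Per the submitters' processing notes, CASAVA and HISAT2 were used with GRCh38 (hg38). Their versions, the counter, the annotation release and strandedness were not given in the sources used here. All 9 members have the positions of GENCODE 29, and 3 overlap another gene, whose counts sum to at most 2.

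Counts were tested with edgeR 4.0.16 (R 4.3.3): filterByExpr (minimum count 10, minimum total 15), TMM factors, robust quasi-likelihood test on the group, Benjamini-Hochberg over 15271 genes, threshold 0.05. SE is absolute log2 fold change over root F, and 95% intervals use the fit's degrees of freedom. Ratios within libraries added 0.5 counts. Length scaling used the deposited gene length, which for NR4A1 (7295 bases) exceeds its principal transcript (2678 bases), so levels between genes are approximate. The fit was tested on simulated data.

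Members and lists were chosen with earlier results of these data known. Named were all members, neighbours, the 3 nearest patterns and all genes of lists with 9 or fewer tested genes. Of longer lists, up to 4 genes with the largest called change were named. PLK2, SGK1, HES1, KLF2, ZYX, HPSE, HSF1, HSP90AA1, HSPD1, PPP2R1A, PPP2R2A, PPP2CB and PPP2CA were chosen after their values were seen. 1 listed gene is not reported here by name. Other settings tried were scaling by RLE, by upper quartile and by library size, DESeq2 1.42.0, limma-voom (limma 3.58.1), other filters, no robust estimation, coding genes only, a replicate block and leaving out each library.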

Additional observations from a re-analysis of the deposited data

How the results depend on the processing

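Across 16 alternatives, NR4A1, NR4A2, IER2, IER5 and SRF kept their direction and their call, and NR4A3 did so in the 15 that tested it. EGR1 stayed above 0 and short of the threshold in all 16, with log2 fold changes of 0.0029 to 0.0989. EGR3 kept its direction in the 15 that tested it and lost its call in 3, each leaving out 1 library. Of the 9 genes 7 were called higher under most settings, 5 with 1 CPM in 3 libraries (where EGR3 and NR4A3 are not tested) and 6 without control siRNA replicate 1, control siRNA replicate 3 or BARD1 siRNA replicate 2. SRF ranged from 0.28 to 0.43. The ratio of NR4A3 to NR4A1 ranged from −0.61 to 0.19 when 1 library was left out, and turned to 0.19 without BARD1 siRNA replicate 2; the cause was not tested. With 250 bases before the start only, the TATA box was in 0 members, since the SRF match lies past the start. The EGR site was then in 2 members, EGR1 and SRF, since the EGR2 match lies past the start. The share of higher genes among all called fell from 51.9% to 41.5% under upper-quartile scaling and 42.2% on library size alone, and the NR4A partner median turned from 0.02 to −0.05 and −0.04. Same-numbered libraries did not deviate together (correlations −0.0091, −0.0149 and −0.0218), so the numbers were not taken to pair them; the replicate block called 3390 genes higher and 3122 lower, against 3355 and 3107, and all 7 members. EGR2, EGR3 and NR4A3 are limited by depth, with 10, 19 and 21 counts over the control siRNA libraries.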
